A study of Homo sapiens with 9 samples.

Results

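HEK293 cells labelled as overexpressing the receptor GPR39 and given cumate were compared with mock HEK293 cells, over all genes that the array's annotation names. The comparison rests on the 3 arrays labelled Plus_cumate, called GPR39 arrays here, and the 3 labelled Minus_cumate, called mock, which are 6 of the 9 arrays of the study. HEK293 is a human embryonic kidney line that is widely used for expressing receptors. The mock cells are labelled naive, with no receptor and no cumate, and the GPR39 cells carry the receptor and received cumate at 0.03 mg/mL. The other 3 arrays were of GPR39 cells given the synthetic GPR39 agonist TC-G-1008 at 1 uM. They entered the choice of tested probe sets and the shared estimate of the spread, but not the difference between the groups. All cells grew in the same serum-containing medium. The labels name no clone, no promoter and no exposure time. No group had cumate without the receptor, so the receptor and cumate cannot be told apart. Any other difference between the cells that carry the receptor and the naive cells cannot be separated from these either. The replicates are called biological without further detail, so p-values measure only the spread of these arrays, which may be technical.

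GPR39 belongs to the G protein-coupled receptors, senses zinc, is markedly active in the absence of a ligand and is known to signal through several G protein families. Cumate is a small molecule that releases a bacterial repressor from engineered promoters and so switches a transgene on. Receptors of this class reach transcription through the coactivator YAP, which binds TEAD factors and is held in the cytoplasm by the Hippo kinases and angiomotins, through ERK kinases and the AP-1 dimers of FOS and JUN proteins, and through NF-kB.

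Values are log2 signals per probe set. The 6 arrays had medians between 3.13 and 3.20 over 53617 probe sets. The floor of an array was set at its 40th percentile, 2.63 to 2.70, and the 33376 probe sets above the floor on 3 or more of the 9 arrays were tested. The tested set held 12827 named probe sets for 11916 genes. Mock replicate 1 stood apart from its group. Across tested probe sets its mean correlation was 0.979 with the other mock arrays and 0.984 with the GPR39 arrays, whereas mock replicate 2 had 0.984 and 0.978 and mock replicate 3 had 0.982 and 0.974. Results are therefore given with and without mock replicate 1, and per-array values below are listed in the order of replicates 1, 2 and 3.

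The GPR39 transcript itself was read by 1 probe set, at 2.43, 2.55 and 2.43 in mock and 2.62, 2.55 and 2.55 in the GPR39 arrays. These values overlapped, and all lay below the floor, so the probe set was not tested across the table. Its mean difference was 0.11 ± 0.08 (SE; 95% interval -0.08 to 0.29; exact permutation test, two-sided p = 0.3, where 0.1 is the smallest p that 3 against 3 arrays allow). A rise of the receptor's own transcript was therefore not measured. A probe set outside an introduced coding sequence checks nothing, and where the probes lie could not be worked out here. Groups keep their labelled names.

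The promoters of 5 genes that rose are shown because they carry letters bound by TEAD factors, AP-1 or NF-kB. The matches in them were thus part of the choice and are not a result. The 250 bases before the annotated start are from RefSeq on GRCh38.p14, written 5′ to 3′ on the gene's own strand. Capitals mark GGAATG, the core bound by TEAD factors, TGANTCA, bound by AP-1, and the NF-kB consensus of 10 letters, GGGRNNYYCC. R stands for A or G, Y for C or T and N for any letter. Each was searched on both strands. Only exact matches are marked, so other binding sites may stand in lower case.
ANKRD1 promoter, chr10:90921088-90921337, minus strand: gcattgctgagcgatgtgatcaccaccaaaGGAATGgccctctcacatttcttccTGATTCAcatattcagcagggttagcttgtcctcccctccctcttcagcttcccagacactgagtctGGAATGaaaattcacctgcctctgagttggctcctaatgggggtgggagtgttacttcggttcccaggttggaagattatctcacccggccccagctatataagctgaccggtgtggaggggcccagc
CCN2 promoter, chr6:131951373-131951622, minus strand: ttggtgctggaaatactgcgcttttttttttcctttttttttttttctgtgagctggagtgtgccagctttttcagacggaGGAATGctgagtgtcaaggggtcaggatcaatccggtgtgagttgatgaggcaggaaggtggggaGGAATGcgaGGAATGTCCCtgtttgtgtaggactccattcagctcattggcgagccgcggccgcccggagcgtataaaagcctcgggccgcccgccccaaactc
CXCL8 promoter, chr4:73740319-73740568, plus strand: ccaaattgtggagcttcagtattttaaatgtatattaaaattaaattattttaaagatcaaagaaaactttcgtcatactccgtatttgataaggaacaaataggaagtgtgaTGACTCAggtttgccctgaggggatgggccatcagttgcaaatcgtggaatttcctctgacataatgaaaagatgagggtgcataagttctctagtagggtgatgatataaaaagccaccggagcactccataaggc
MMP10 promoter, chr11:102780629-102780878, minus strand: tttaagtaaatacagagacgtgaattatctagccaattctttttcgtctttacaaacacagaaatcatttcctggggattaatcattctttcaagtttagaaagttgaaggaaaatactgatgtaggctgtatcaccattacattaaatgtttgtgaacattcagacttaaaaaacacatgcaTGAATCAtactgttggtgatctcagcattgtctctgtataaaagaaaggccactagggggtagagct
CCL20 promoter, chr2:227813592-227813841, plus strand: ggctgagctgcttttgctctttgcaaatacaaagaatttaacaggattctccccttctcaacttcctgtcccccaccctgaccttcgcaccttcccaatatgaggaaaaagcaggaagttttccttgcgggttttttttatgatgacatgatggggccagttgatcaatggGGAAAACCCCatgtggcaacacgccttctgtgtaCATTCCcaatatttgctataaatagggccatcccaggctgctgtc
ANKRD1 holds GGAATG at 220 and 128 bases before its start and TGANTCA at 195. CCN2 holds GGAATG at 169, 104 and 95 bases before its start, and the last of these overlaps an NF-kB match on the opposite strand. CXCL8 and MMP10 hold TGANTCA at 137 and 67 bases. CXCL8 also holds tggaatttcc, which departs from the NF-kB consensus in its first letter and so was not marked. CCL20 holds the NF-kB consensus at 79 bases and GGAATG at 45, both on the opposite strand. Such letters are common. GGAATG is found in 11.9% of all 35116 promoters in the table, TGANTCA in 6.57% and the NF-kB consensus in 9.96%. Among tested genes with a promoter in the table the shares were 13.0%, 6.5% and 15.5%. Among 92 genes called higher they were 19.6%, 12% and 21.7%, and among 53 called lower 7.55%, 9.43% and 15.1%. The CREB site TGACGTCA was found in 1.65% of all promoters, 3.03% of those of tested genes, 6.52% of those called higher and 1.89% of those called lower, and the CArG box bound by SRF in 1.16%, 1.57%, 4.35% and 3.77%. These shares are a description and were not tested.

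Between the GPR39 group and mock, a small share of the tested probe sets passed the threshold. More genes were higher than lower when all arrays were used. With 3 arrays a group, a probe set that did not pass is not thereby shown to be unchanged. Without mock replicate 1 the order turned, with 204 genes higher and 209 lower. With all arrays, 391 probe sets passed a limma adjusted p of 0.05 (1.17% of those tested), called here. Of these 250 were higher in the GPR39 arrays (0.749%) and 141 lower (0.422%). When each array was centred on its 75th percentile, 310 were higher and 105 lower, so that 74.7% of calls were rises in place of 63.94%. The named calls covered 124 genes that rose, 1.04% of the genes tested, and 72 that fell, 0.604%. Without mock replicate 1 the shares were 1.71% and 1.75%. Counts of calls in the gene lists below are to be read against these shares. In all 196 genes the 3 GPR39 arrays lay on the same side of the 3 mock arrays, whereas 11.4% of tested probe sets had all GPR39 arrays above all mock arrays and 9.28% below. A rise of at least 2-fold was reached by 36 genes and a fall of that size by 10. Over all genes the median log2 change was 0.02.

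**Figure D1:**
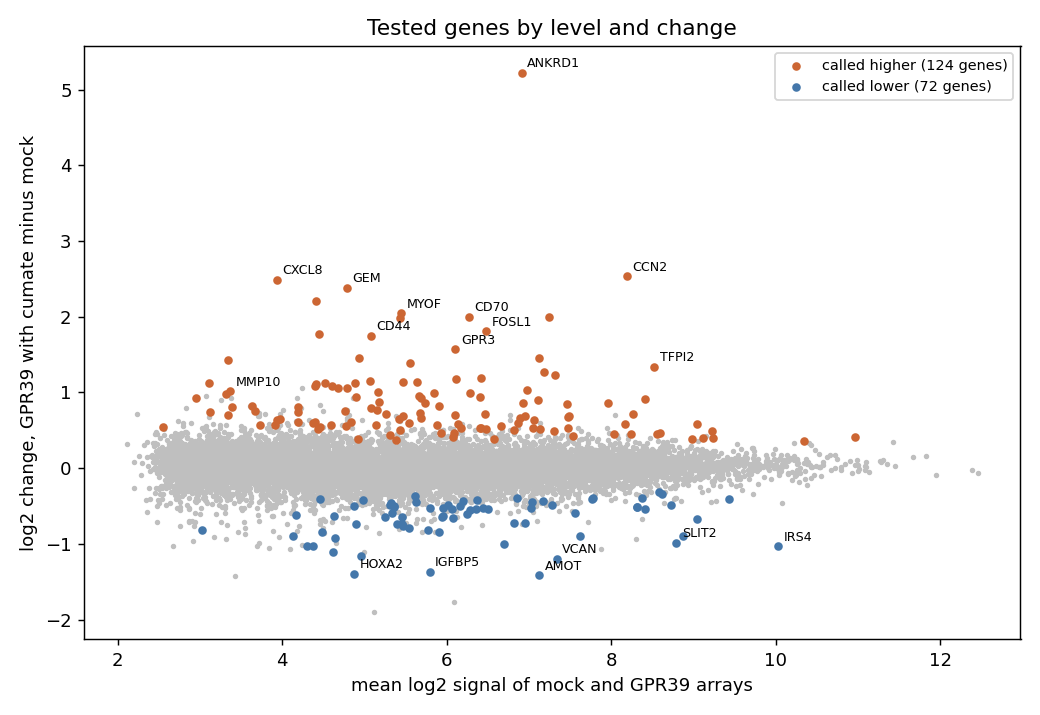
Log2 change, GPR39 arrays minus mock, against the mean log2 signal of the 6 arrays, for each of the 11916 tested genes (1 probe set per gene). The 124 genes called higher are orange and the 72 called lower are blue, and ANKRD1 stands alone above a change of 5.

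The largest rise belonged to targets of YAP and TEAD. ANKRD1, an ankyrin repeat protein of the nucleus and a classical YAP target, read 4.0001, 4.77 and 4.15 in mock and 9.39, 9.601 and 9.58 in the GPR39 arrays. The mock arrays were spread over less than 1 log2 unit and all GPR39 arrays stood far above them. The change was 5.22 ± 0.18 (SE; limma adjusted p = 1.63e-05), and 5.07 without mock replicate 1. CCN2, which encodes connective tissue growth factor, read 7.09, 6.85 and 6.82 in mock and 9.37, 9.51 and 9.49 in the GPR39 arrays. Its lowest GPR39 array was above its highest mock array, which was mock replicate 1. CCN2 rose by 2.54 ± 0.09 (limma adjusted p = 1.63e-05), and its other, dimmer probe set rose by 3.13. MYOF, a membrane fusion protein of the ferlin family, rose from 4.42 ± 0.05 to 6.47 ± 0.04 (SD, n = 3). AMOTL2, an angiomotin relative, rose by 0.75 ± 0.14. Of 22 listed YAP and TEAD targets, 12 had a named probe set and all 12 were tested. These 4 rose and none fell, and the median change was 0.22. The call of AMOTL2 was lost when mock replicate 2 or 3 or any of the 3 GPR39 arrays was left out (limma adjusted p from 0.0661 to 0.161).

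Components of the Hippo pathway itself changed in both directions. AMOT, the angiomotin that tethers YAP in the cytoplasm and at junctions, read 7.75, 7.86 and 7.88 in mock and 6.36, 6.49 and 6.398 in the GPR39 arrays. The GPR39 arrays lay more than 1 log2 unit below every mock array. AMOT fell the most of all called genes, by 1.41 ± 0.10 (limma adjusted p = 0.000592), and changed by -1.45 without mock replicate 1. WWC1, a scaffold that activates the kinase side of the pathway, rose by 0.68 ± 0.08 (limma adjusted p = 0.00622). VGLL3, a cofactor that binds TEAD factors, rose by 0.57 ± 0.08. With AMOTL2, 3 of 26 tested members rose and 1 fell, with a median of 0.06. All 26 were tested of 28 listed and 26 named. Among 13 tested targets of SRF, the factor that reads the pool of free actin, only CNN2, an actin-binding calponin, passed, rising by 0.68 ± 0.11 while its other probe set had a log2 difference of 0.11 and did not pass. The median of that list was 0.21. The call of VGLL3 was lost when mock replicate 2 or any of the 3 GPR39 arrays was left out (limma adjusted p from 0.0593 to 0.0802). CNN2 lost the call without mock replicate 2 or 3 or any of the 3 GPR39 arrays (limma adjusted p from 0.0526 to 0.115).

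The chemokine genes CXCL8, CCL2 and CCL20 were among the largest rises. CXCL8, which encodes the neutrophil attractant interleukin-8, read 3.004, 2.23 and 2.84 in mock and 5.17, 5.19 and 5.19 in the GPR39 arrays. Mock replicate 2 lay below the floor, and with the floor in place of dimmer values CXCL8 rose by at least 2.35 (limma adjusted p = 0.000874). CCL2, a monocyte attractant, read 4.33, 4.26 and 4.73 in mock and 6.32, 6.47 and 6.49 in the GPR39 arrays. All 3 GPR39 arrays were more than 1 log2 unit above the highest mock array. CCL2 rose by 1.99 ± 0.17 (limma adjusted p = 0.00196) and by 1.93 without mock replicate 1. CCL20, which draws lymphocytes and dendritic cells through its receptor CCR6, read 3.53, 3.63 and 3.52 in mock and 5.17, 5.43 and 5.39 in the GPR39 arrays. It rose by 1.77 ± 0.17 (limma adjusted p = 0.00293), with mock arrays that lay close together. The cytokine gene LIF rose by 0.61 ± 0.07. IL32 rose by at least 0.90, from a mock group with 2 of 3 arrays under the floor. Of 31 listed cytokines and chemokines 25 were named and 18 tested. These 5 rose, none fell, and the median was 0.34. CCL5, CXCL2 and CXCL12 had changes of -0.11, 0.18 and -0.11 and did not pass, and CXCL10 was too dim to be tested. The call of LIF was lost when any of the 3 GPR39 arrays was left out (limma adjusted p from 0.0521 to 0.0576). IL32 lost the call without mock replicate 2 or 3 or any of the 3 GPR39 arrays (limma adjusted p from 0.0882 to 0.161).

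The NF-kB subunit genes NFKB1 and NFKB2 rose as well. NFKB1 read 6.43, 6.58 and 6.48 in mock and 7.33, 7.37 and 7.37 in the GPR39 arrays, and NFKB2 read 6.08, 5.87 and 5.87 in mock and 6.87, 6.9004 and 6.86 in the GPR39 arrays. Both precursors of NF-kB subunits stood above mock on every GPR39 array, and replicates lay close together. NFKB1 rose by 0.86 ± 0.07 and NFKB2 by 0.94 ± 0.09 (limma adjusted p = 0.000926 and 0.00293). No other of the 12 tested subunits and feedback inhibitors passed, and the list's median was 0.20. CD70, the TNF family ligand of the lymphocyte receptor CD27, read 5.41, 5.42 and 4.98 in mock and 7.24, 7.43 and 7.14 in the GPR39 arrays. It rose by 2.001 ± 0.13 (limma adjusted p = 0.000421), from the highest mock array at 5.42 to no GPR39 array under 7.14. CD70 was the 1 member called among 4 tested genes of the TNF family list, of 34 listed.

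AP-1 subunit genes did not move together. FOSL1, a FOS family member of later induction, read 5.24, 5.74 and 5.74 in mock and 7.34, 7.38 and 7.42 in the GPR39 arrays. Mock replicate 1 was the lowest of its group, and FOSL1 rose by 1.81 ± 0.14 with it and 1.64 without it (limma adjusted p = 0.000926 and 0.000563). JUNB read 5.83, 5.94 and 5.704 in mock and 6.93, 7.11 and 6.996 in the GPR39 arrays and rose by 1.19 ± 0.12 (limma adjusted p = 0.0045). ATF3, a stress-responsive partner of JUN proteins, rose from 4.85 ± 0.14 to 6.24 ± 0.15 (SD, n = 3). FOSL2 rose by 0.71 ± 0.11. FOS fell on the probe set that passed, reading 5.76, 5.76 and 5.78 in mock and 5.196, 4.795 and 5.08 in the GPR39 arrays, a change of -0.74 ± 0.11, while its other probe set had a log2 difference of -0.06 and did not pass. FOSB, JUN and JUND had log2 differences of 0.25, 0.12 and 0.20, none of which passed. Of 13 tested subunits of 19 listed, 4 rose and 1 fell, with a median of 0.20. The call of FOSL2 was lost when mock replicate 2 or any of the 3 GPR39 arrays was left out (limma adjusted p from 0.0885 to 0.116). FOS lost the call without mock replicate 2 or 3 or GPR39 replicate 3 (limma adjusted p from 0.0798 to 0.0816).

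Other immediate-early genes were higher in part. CSRNP1, a nuclear protein induced early by growth signals, read 3.97, 3.74 and 3.85 in mock and 5.02, 4.92 and 4.94 in the GPR39 arrays. It rose by 1.11 ± 0.09 (limma adjusted p = 0.000987), with no overlap between groups. KLF5, a zinc finger factor of proliferating epithelia, rose by 0.67 ± 0.09, the kinase gene SGK1 by 0.57 ± 0.09 and IER5 by 0.50 ± 0.08. These were 4 of 15 tested members of 22 listed, none fell, and the median was 0.27. EGR1, ARC and MYC had log2 differences of 0.07, -0.04 and 0.05, and none of the 3 passed. The calls of KLF5 and SGK1 were lost when mock replicate 2 or any of the 3 GPR39 arrays was left out (limma adjusted p from 0.0508 to 0.13). IER5 lost the call without mock replicate 2 or 3 or any of the 3 GPR39 arrays (limma adjusted p from 0.0908 to 0.126).

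Of 18 tested genes that report ERK activity 6 rose, and the median of the list was 0.36, or 0.38 without mock replicate 1. IER3, an early-response gene that prolongs ERK signalling, read 6.33, 6.501 and 6.36 in mock and 7.86, 7.84 and 7.87 in the GPR39 arrays, with nearly equal values on the 3 GPR39 arrays. It rose by 1.46 ± 0.07 (limma adjusted p = 4.66e-05). All 11 probe sets with that name were called, with changes from 0.66 to 1.46, but several carry identical values and are not independent. DUSP4, a phosphatase that switches MAP kinases off, read 5.098, 4.83 and 4.76 in mock and 5.91, 6.19 and 6.02 in the GPR39 arrays. The highest of the mock arrays was replicate 1, and DUSP4 rose by 1.14 ± 0.11 with it and 1.24 without it. EPHA2, an ephrin receptor tyrosine kinase induced by ERK, rose from 6.46 ± 0.13 to 7.499 ± 0.03 (SD, n = 3). The ETS factor gene ETV4 rose by 0.82 ± 0.13 and DUSP1 by 0.40 ± 0.07. With LIF, 6 of 18 tested members of 24 listed rose and none fell. DUSP6 and SPRY2, the textbook feedback inhibitors of ERK, had log2 differences of -0.05 and -0.02 and did not pass. The calls of ETV4 and DUSP1 were lost when mock replicate 2 or 3 or any of the 3 GPR39 arrays was left out (limma adjusted p from 0.0896 to 0.138). LIF lost the call without any of the 3 GPR39 arrays (limma adjusted p from 0.0521 to 0.0576).

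Among EGF family genes, HBEGF, a shed ligand of the EGF receptor, read 5.499, 5.17 and 5.02 in mock and 6.16, 6.13 and 6.18 in the GPR39 arrays and rose by 0.93 ± 0.11. ERRFI1, an inhibitor that binds the activated EGF receptor, rose by 0.72 ± 0.08. These 2 of 11 tested members passed, of 16 listed, while the median of the list was -0.05. The call of HBEGF was lost when mock replicate 2 or any of the 3 GPR39 arrays was left out (limma adjusted p from 0.0535 to 0.0615). ERRFI1 lost the call without GPR39 replicate 3 (adjusted p = 0.0556).

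**Figure D2:**
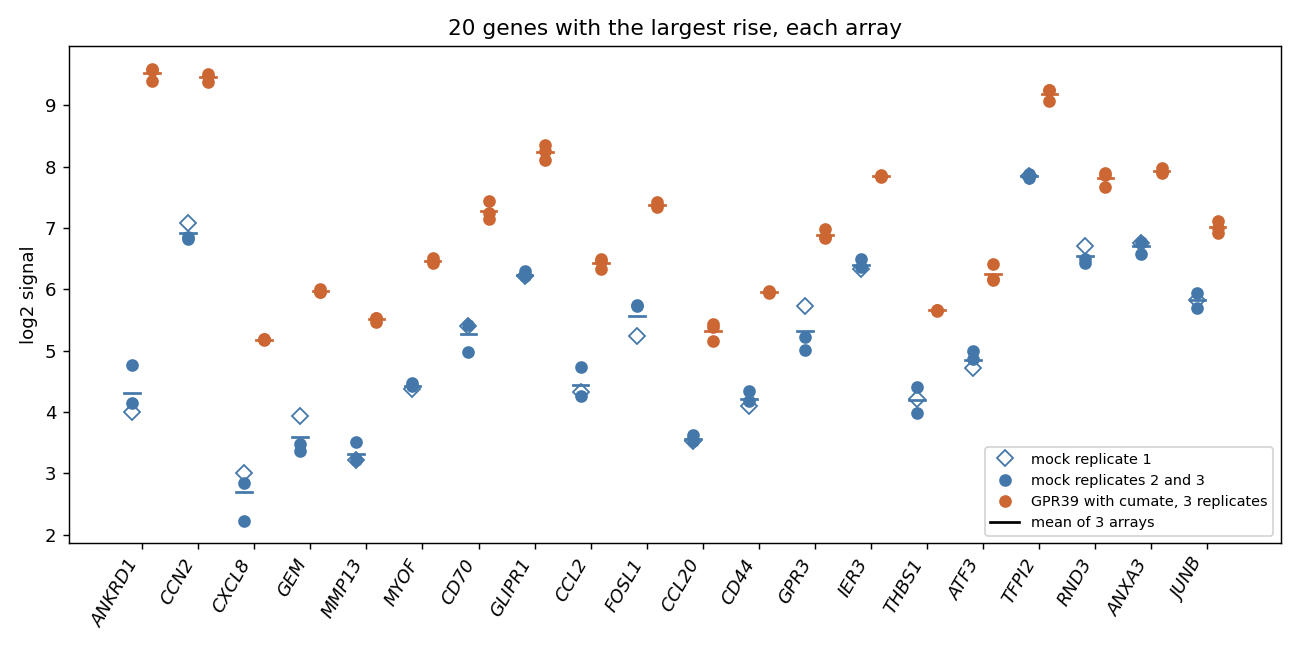
Log2 signal on each mock array (blue; open diamond for replicate 1) and each GPR39 array (orange) for the 20 genes with the largest rises, with lines at the means of 3 arrays. In each gene all orange points lie above all blue points. The open diamond is the highest mock point in CCN2, CXCL8, GEM, GPR3 and RND3. It is the lowest in ANKRD1, MYOF, GLIPR1, FOSL1, CD44, IER3 and ATF3.

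Among matrix proteases and their inhibitors MMP13, MMP10, TFPI2 and TFPI rose. MMP13, a collagenase, read 3.22, 3.22 and 3.504 in mock and 5.54, 5.54 and 5.48 in the GPR39 arrays. The GPR39 arrays stood far above all mock arrays, and MMP13 rose by 2.203 ± 0.12 (limma adjusted p = 8.9e-05). MMP10, a stromelysin, read 2.79, 2.93 and 2.87 in mock and 3.87, 3.88 and 3.88 in the GPR39 arrays and rose by 1.02 ± 0.09 (limma adjusted p = 0.00159). TFPI2, a Kunitz-type inhibitor of matrix proteases, was already bright in mock and rose from 7.85 ± 0.03 to 9.19 ± 0.11 (SD, n = 3), which is 2.53-fold. TFPI, its relative that restrains the start of coagulation, rose by 0.65 ± 0.09. These 4 were called of 16 tested, none fell, and the median was 0.12. MMP14, TIMP1 and TIMP2 had log2 differences of -0.01, -0.11 and 0.15 and did not pass, and neither did MMP1, which was under the floor on all 3 mock arrays. The call of TFPI was lost when mock replicate 2 or 3 or any of the 3 GPR39 arrays was left out (limma adjusted p from 0.0619 to 0.0865).

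Adhesion and matrix genes moved in both directions. CD44, the hyaluronan receptor, read 4.09, 4.35 and 4.19 in mock and 5.95, 5.97 and 5.95 in the GPR39 arrays and rose by 1.75 ± 0.08 (limma adjusted p = 4.66e-05). THBS1, the matricellular protein thrombospondin, read 4.22, 4.41 and 3.98 in mock and 5.65, 5.67 and 5.66 in the GPR39 arrays and rose by 1.46 ± 0.12 (limma adjusted p = 0.00155). In both genes the GPR39 arrays were nearly equal while the mock arrays were spread more widely. ICAM1, an adhesion molecule for leukocytes, rose by 1.12 ± 0.11 and TNC, the matrix glycoprotein tenascin, by 0.54 ± 0.07. VCAN, a large matrix proteoglycan, read 7.46, 8.08 and 8.26 in mock and 6.804, 6.78 and 6.64 in the GPR39 arrays. Of the mock arrays replicate 1 lay nearest to the GPR39 group, and VCAN changed by -1.19 ± 0.19 with it and -1.43 without it (limma adjusted p = 0.0278 and 0.00136). Of 28 tested members of 36 listed, 4 rose and 1 fell, with a median of -0.02. No integrin gene had a named probe set. The call of TNC was lost when mock replicate 2 or any of the 3 GPR39 arrays was left out (limma adjusted p from 0.0675 to 0.0811). VCAN lost the call without mock replicate 2 or 3 or any of the 3 GPR39 arrays (limma adjusted p from 0.0783 to 0.119).

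Genes of small GTPases and signal modifiers were among the largest rises. GEM, a GTPase of the RGK family that lowers calcium channel traffic, read 3.94, 3.47 and 3.37 in mock and 5.96, 5.96 and 6.005 in the GPR39 arrays. Mock replicate 1 was the highest of its group, and GEM rose by 2.38 ± 0.14 with it and 2.56 without it (limma adjusted p = 0.000221 and 9.11e-05). RND3, a small GTPase gene, rose from 6.54 ± 0.14 to 7.81 ± 0.12 (SD, n = 3; limma adjusted p = 0.000722). GPR3, an orphan receptor that raises cAMP without a ligand, read 5.72, 5.23 and 5.01 in mock and 6.83, 6.98 and 6.86 in the GPR39 arrays. Its mock arrays were spread widely, with replicate 1 the nearest to the GPR39 group, and GPR3 rose by 1.57 ± 0.17 with that array and 1.77 without it (limma adjusted p = 0.0055 and 0.000782). RCAN1, a calcineurin inhibitor that calcium signals induce, read 3.77, 4.13 and 3.98 in mock and 5.02, 4.92 and 5.31 in the GPR39 arrays and rose by 1.12 ± 0.12. It was the 1 member called of 13 tested cAMP, CREB and calcium targets, with a median of 0.18. None of 15 tested G protein subunits and RGS proteins passed. GLIPR1 and ANXA3, an annexin, completed the genes with the largest rises, at 1.99 ± 0.09 and 1.23 ± 0.07.

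BMP2, a secreted growth factor, rose by 0.66 ± 0.06 and its antagonist gene NOG by 0.54 ± 0.07, the 2 called of 30 tested Wnt, BMP, TGF-beta and Notch genes. XBP1, a factor of the unfolded protein response, rose by 0.56 ± 0.07 as 1 of 14 tested genes of that response. Some called genes outside the lists were chosen for mention after their values were seen. The transcription factor gene ETS1 read 4.58, 4.37 and 4.5003 in mock and 5.58, 5.58 and 5.76 in the GPR39 arrays and rose by 1.15 ± 0.08 (limma adjusted p = 0.000686). CAVIN1, which shapes caveolae, read 5.14, 5.24 and 5.17 in mock and 6.24, 6.03 and 6.14 in the GPR39 arrays and rose by 0.95 ± 0.10. The actin-binding genes NEXN and MYO1E rose by 0.71 ± 0.07 and 0.63 ± 0.07, the splicing regulator MBNL2 by 0.84 ± 0.09 and the fibulin gene EFEMP1 by 0.71 ± 0.08. ARHGEF35 rose by at least 0.77, from a mock group with all 3 arrays under the floor. In these 7 genes every fit that left out 1 array kept the call. The call of NOG was lost when mock replicate 2 or 3 or any of the 3 GPR39 arrays was left out (limma adjusted p from 0.057 to 0.0826). XBP1 lost the call without mock replicate 2 or any of the 3 GPR39 arrays (limma adjusted p from 0.0535 to 0.0664).

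Falls were smaller, and after AMOT the largest were those of HOXA2, IGFBP5 and VCAN. HOXA2, a homeobox factor that patterns hindbrain and neck, read 5.69, 5.49 and 5.54 in mock and 4.23, 4.26 and 4.05 in the GPR39 arrays. The highest GPR39 array lay more than 1 log2 unit under the lowest mock array. HOXA2 changed by -1.39 ± 0.09 (limma adjusted p = 0.000297), and HOXB5 by -0.92 ± 0.08 (limma adjusted p = 0.00195). HOXB5 read 5.06, 5.16 and 5.08 in mock and 4.25, 4.04 and 4.25 in the GPR39 arrays. No other of 26 tested HOX genes passed and none rose, with a median of -0.10. EBF2, a factor of adipose and neural lineages, read 5.804, 5.58 and 5.22 in mock and 4.19, 4.44 and 4.501 in the GPR39 arrays and changed by -1.16 ± 0.17. It was the 1 gene called of 45 tested developmental transcription factors of kidney and nervous system, whose median was -0.07. That is 2.22% lower, against 0.604% over all genes. The call of EBF2 was lost when mock replicate 2 or any of the 3 GPR39 arrays was left out (limma adjusted p from 0.0827 to 0.0973).

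Insulin and IGF pathway genes held 2 falls among 18 tested. IGFBP5, a binding protein for insulin-like growth factors, read 6.53, 6.45 and 6.45 in mock and 5.02, 5.18 and 5.13 in the GPR39 arrays. Its mock arrays lay close together and well above the GPR39 arrays, and it changed by -1.37 ± 0.10 (limma adjusted p = 0.000722). IRS4, an insulin receptor substrate that HEK293 cells hold at a high level, read 10.49, 10.58 and 10.57 in mock and 9.499, 9.55 and 9.51 in the GPR39 arrays. All 3 GPR39 arrays lay about 1 log2 unit under mock, and IRS4 changed by -1.03 ± 0.14 (limma adjusted p = 0.0162). The median of the list was -0.04. The call of IRS4 was lost when mock replicate 2 or 3 or any of the 3 GPR39 arrays was left out (limma adjusted p from 0.0686 to 0.0827).

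Axon guidance genes had 6 falls among 33 tested (18.2%, against 0.604% over all genes). EPHA2 was the 1 rise (3.03%, against 1.04%), and the median was -0.10. NRP1, a coreceptor for semaphorins and for VEGF, read 7.15, 7.13 and 7.32 in mock and 6.22, 6.23 and 6.14 in the GPR39 arrays and changed by -1.002 ± 0.09 (limma adjusted p = 0.00175). SLIT2, the secreted ligand of ROBO receptors, was bright in mock and read 9.04, 9.36 and 9.45 in mock and 8.27, 8.27 and 8.37 in the GPR39 arrays. Mock replicate 1 was the lowest mock array, and SLIT2 changed by -0.98 ± 0.13 with it and -1.103 without it. The ephrin receptors EPHA7 and EPHA4 changed by -0.67 ± 0.08 and -0.66 ± 0.11. The netrin receptors NEO1 and UNC5C changed by -0.59 ± 0.09 and -0.73 ± 0.12, and UNC5C, the last of the 6 by p, had an adjusted p of up to 0.142 with 1 array left out. LRP2, the endocytic receptor megalin of kidney tubules, read 4.47, 5.08 and 4.92 in mock and 3.68, 3.97 and 3.74 in the GPR39 arrays. The lowest mock array was again replicate 1, and LRP2 changed by -1.03 ± 0.16 with it and -1.202 without it. LRP2 was the 1 fall among 13 tested genes of the LDL receptor family list. The call of SLIT2 was lost when mock replicate 2 or any of the 3 GPR39 arrays was left out (limma adjusted p from 0.0576 to 0.0654). EPHA7 lost the call without any of the 3 GPR39 arrays (limma adjusted p from 0.0501 to 0.0542). EPHA4, NEO1 and LRP2 lost the call without mock replicate 2 or 3 or any of the 3 GPR39 arrays (limma adjusted p from 0.0627 to 0.128).

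The Hedgehog receptor gene PTCH1 and the coreceptor gene CDON were among the 20 largest falls. PTCH1, the receptor that Hedgehog ligands bind and induce, read 5.96, 6.01 and 5.82 in mock and 5.19, 5.19 and 5.06 in the GPR39 arrays and changed by -0.78 ± 0.10. CDON, a Hedgehog coreceptor, read 6.23, 6.42 and 6.35 in mock and 5.61, 5.303 and 5.55 in the GPR39 arrays and changed by -0.84 ± 0.15. The glypican gene GPC3, which modulates growth factor gradients, read 7.93, 8.204 and 8.07 in mock and 7.13, 7.12 and 7.26 in the GPR39 arrays and changed by -0.90 ± 0.09 (limma adjusted p = 0.00385). No list of Hedgehog genes was drawn up, and PTCH1, CDON and GPC3 are named by the size of their falls. KBTBD7, which encodes a BTB-Kelch substrate adaptor, changed by -1.02 ± 0.11, NKAIN2 by -0.82 ± 0.10 and C1orf21 by -0.76 ± 0.08. The call of PTCH1 was lost when mock replicate 2 or GPR39 replicate 2 or 3 was left out (limma adjusted p from 0.0527 to 0.0593). CDON lost the call without mock replicate 2 or 3 or any of the 3 GPR39 arrays (limma adjusted p from 0.114 to 0.16). NKAIN2 lost the call without GPR39 replicate 2 or 3 (limma adjusted p from 0.051 to 0.0512).

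Zinc finger genes named ZNF had 6 falls and 1 rise among 408 tested, with a median of -0.05. The falls were 1.47% of those tested, against 0.604% over all genes, and the rise 0.245%, against 1.04%. ZNF221 read 4.99, 5.22 and 5.29 in mock and 4.24, 4.04 and 3.91 in the GPR39 arrays, with mock replicate 1 the lowest of mock, and changed by -1.104 ± 0.11. ZNF235 read 4.901, 4.81 and 5.01 in mock and 4.09, 4.03 and 4.09 in the GPR39 arrays and changed by -0.84 ± 0.09. ZNF711, ZNF594, ZNF449 and ZNF503 changed by -0.90 ± 0.10, -0.65 ± 0.09, -0.52 ± 0.07 and -0.49. ZNF165 rose by 1.00 ± 0.11 on 1 probe set, and its other probe set had a log2 difference of -0.02 and did not pass. The call of ZNF711 was lost when GPR39 replicate 3 was left out (adjusted p = 0.0537). ZNF594 lost the call without mock replicate 2 or 3 or any of the 3 GPR39 arrays (limma adjusted p from 0.0583 to 0.0865). ZNF449 lost the call without mock replicate 3 or any of the 3 GPR39 arrays (limma adjusted p from 0.051 to 0.0688). ZNF503 also lost the call in at least 1 of the fits that left out 1 array.

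**Figure D3:**
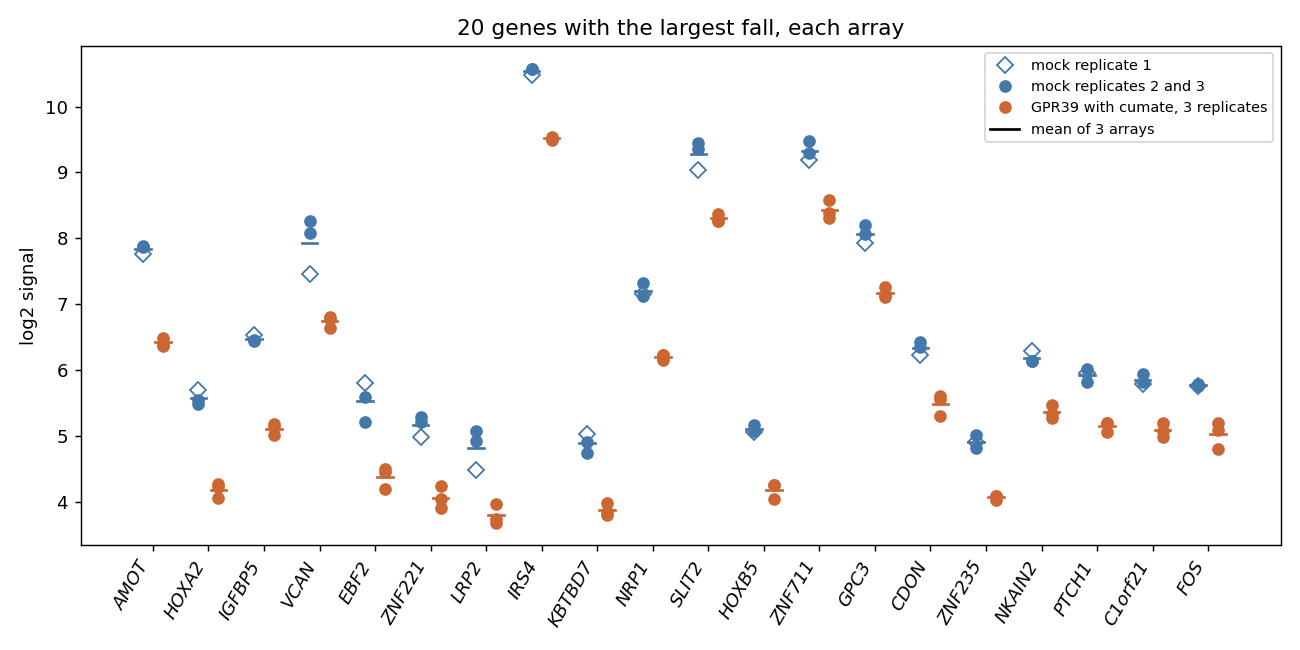
Log2 signal on each mock array (blue; open diamond for replicate 1) and each GPR39 array (orange) for the 20 genes with the largest falls, with lines at the means of 3 arrays. All orange points lie below all blue points of the same gene. The open diamond is the lowest mock point in VCAN, ZNF221, LRP2 and SLIT2 among others. It is the highest in HOXA2, IGFBP5, EBF2, KBTBD7 and NKAIN2.

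Of 1088 named microRNA genes 483 were tested, host genes with microRNA names included, and 1 rose and 1 fell. Each is 0.207% of those tested, below the shares over all genes of 1.04% higher and 0.604% lower. The rise was the host gene MIR7-3HG, at 1.06 ± 0.13. The fall was MIR210, the microRNA induced by low oxygen. Its mature arms, from RefSeq on GRCh38.p14 at chr11:568112-568133 and chr11:568150-568171 on the minus strand, are shown with the seed, bases 2 to 8, in capitals.
hsa-miR-210-3p: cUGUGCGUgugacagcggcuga
hsa-miR-210-5p: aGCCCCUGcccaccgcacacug
The MIR210 probe set read 6.38, 6.404 and 6.45 in mock and 6.01, 5.92 and 5.83 in the GPR39 arrays, and it changed by -0.49 ± 0.08 (limma adjusted p = 0.0336). The array reads RNA of the locus and does not separate the arms or the precursor. HILPDA, a lipid droplet protein gene that low oxygen also induces, was named after its values were seen and read 6.25, 6.22 and 6.18 in mock and 5.72, 5.75 and 5.57 in the GPR39 arrays. It changed by -0.53 ± 0.09. The call of MIR210 was lost when mock replicate 2 or 3 or any of the 3 GPR39 arrays was left out (limma adjusted p from 0.0759 to 0.136). MIR7-3HG lost the call without any of the 3 GPR39 arrays (limma adjusted p from 0.0501 to 0.0556). For HILPDA the largest adjusted p over those fits was 0.126, and the call was lost without any array other than mock replicate 1.

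**Figure D4:**
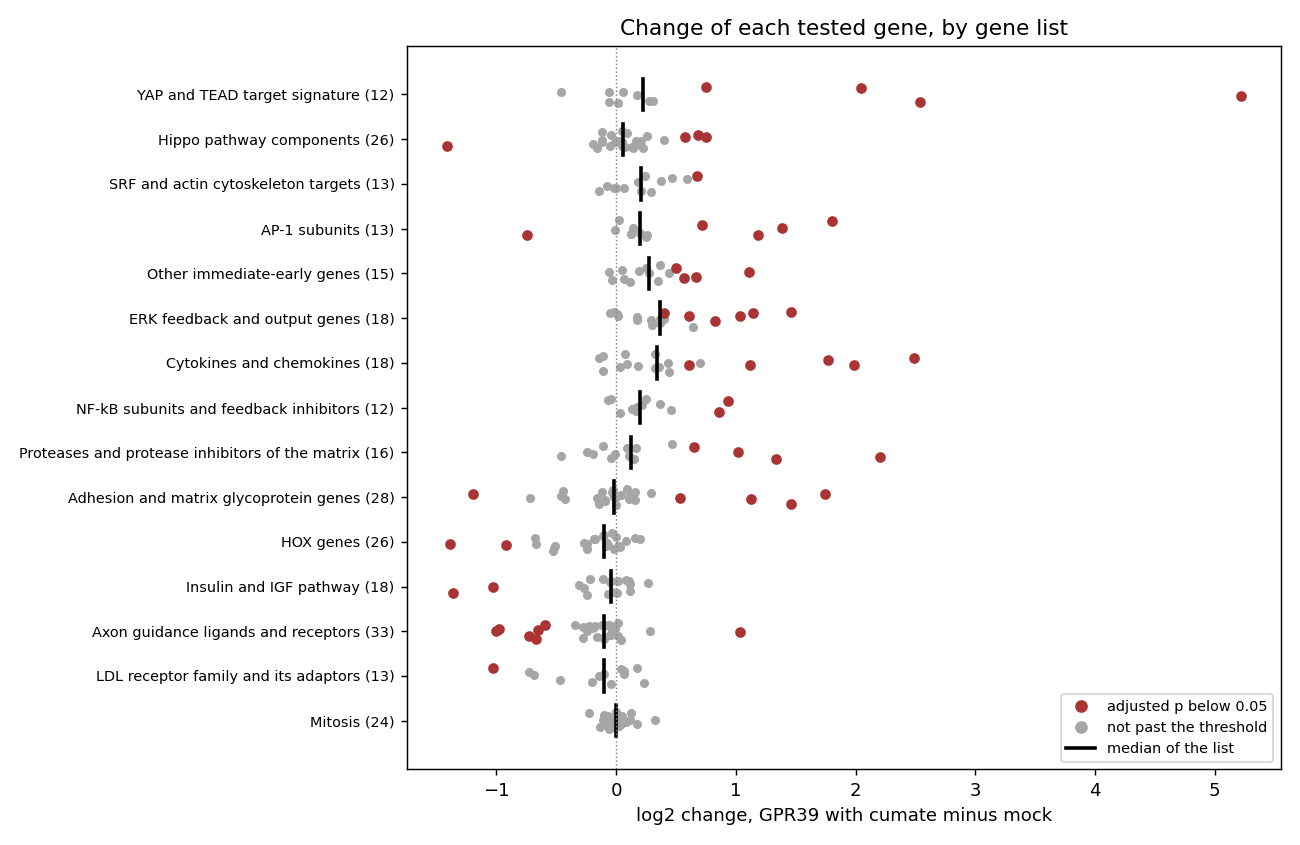
Log2 change of each tested gene (1 point each) in 15 gene lists, with the number tested in brackets, red for an adjusted p below 0.05 and a black bar at the list's median. Red points lie mostly to the right in the YAP, AP-1, ERK, cytokine and protease lists and to the left in the HOX, insulin and guidance lists, while no mitosis gene is red.

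Many lists held no call with all arrays. These were mitosis (24 tested, median 0.00), DNA replication (18, -0.04), cholesterol synthesis (18, -0.07), ATF4 and amino-acid response (16, 0.13), interferon response (18, 0.05) and NRF2 targets (7, 0.09). The same held for 73 mitochondrial and 51 cytosolic ribosomal protein genes, with medians of 0.07 and 0.05. Over all genes only 1.04% were called higher and 0.604% lower, so a list without a call is not thereby shown to be unaffected. Of the metallothionein and zinc transporter list, which bears on the ligand of GPR39, 6 of 35 listed genes were tested, 10 being named. MT1X, MT2A and MT1F had log2 differences of -0.35, 0.10 and 0.07, and none passed.

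The line's own markers were present. IRS4, KRT18, VIM, KRT8 and PAX2, the 5 of 8 listed HEK293 markers with a named probe set, were above the floor on all 6 arrays. Their summed linear signal ran from 1880 to 1970 in mock and from 1170 to 1190 in the GPR39 arrays, and IRS4 was the 1 member called. The median log2 change of these 5 was -0.29, and 1 of them had a positive change. Of 13 leukocyte markers 7 were named. LCP1 and CD68, which other cell types also express, rose by 0.50 ± 0.06 and 0.90 ± 0.12, and the summed signal of the list ran from 614 to 649 in mock and from 912 to 963 in the GPR39 arrays. LAPTM5 and CD14 were also above the floor on all 6 arrays and had log2 differences of 0.16 and 0.01, which did not pass, and CD53 was below the floor on all 6. Over the 5 tested leukocyte markers the median was 0.49. Summed fibroblast markers ran from 16.6 to 17.5 in mock and 16.3 to 16.9 in the GPR39 arrays, endothelial from 51.4 to 53.3 and 51.9 to 57.1, hepatocyte from 50.2 to 59.4 and 50.4 to 60.3, and squamous from 31 to 39.8 and 37.1 to 43.8. A part of other cells in the chemokine and adhesion results was not tested. The call of LCP1 was lost when GPR39 replicate 2 or 3 was left out (limma adjusted p from 0.0556 to 0.0597). CD68 lost the call without any of the 3 GPR39 arrays (limma adjusted p from 0.0613 to 0.0688).

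Leaving out mock replicate 1 changed the falls far more than the rises. Without it 1323 probe sets were called (3.96%), 416 higher (1.25%) and 907 lower (2.72%). Of the 391 calls with all arrays 375 were kept. Among named genes the 6 that lost the call were CNNM3, ELAPOR1, MAP2K6, GATA6, DACH1 and TRIB2, with adjusted p between 0.0519 and 0.0587. Another 948 probe sets were newly called, 174 higher and 774 lower, of which 239 carry a name. Leaving out mock replicate 2 or 3 in its place gave 139 and 196 calls.

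Mock replicate 1 took no part in that fit, so its own values can be set beside the calls. On a line from the mean of mock replicates 2 and 3 (0%) to the GPR39 mean (100%), its median position was 81.8% over the 907 lower calls, and 77.1% of them lay nearer to the GPR39 mean. Over the 416 higher calls the median was 21.7% and 22.8% lay nearer. In the same calculation with mock replicate 2 left out, 0 of 27 lower and 6 of 112 higher calls had the left-out array nearer to the GPR39 mean. With mock replicate 3 left out these were 5 of 47 and 10 of 149. Both of these fits kept mock replicate 1 and called 27 and 47 probe sets lower, against 907. Their shares therefore come from other sets of calls and are not a like comparison. Over the 774 newly lower probe sets the median signal was 5.95 in mock replicates 2 and 3, 5.002 in mock replicate 1, 4.85 in GPR39 and 5.07 in agonist arrays. A probe set called only without an array is chosen in part by that array's value, so this last set describes the choice. What set mock replicate 1 apart was not tested.

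**Figure D5:**
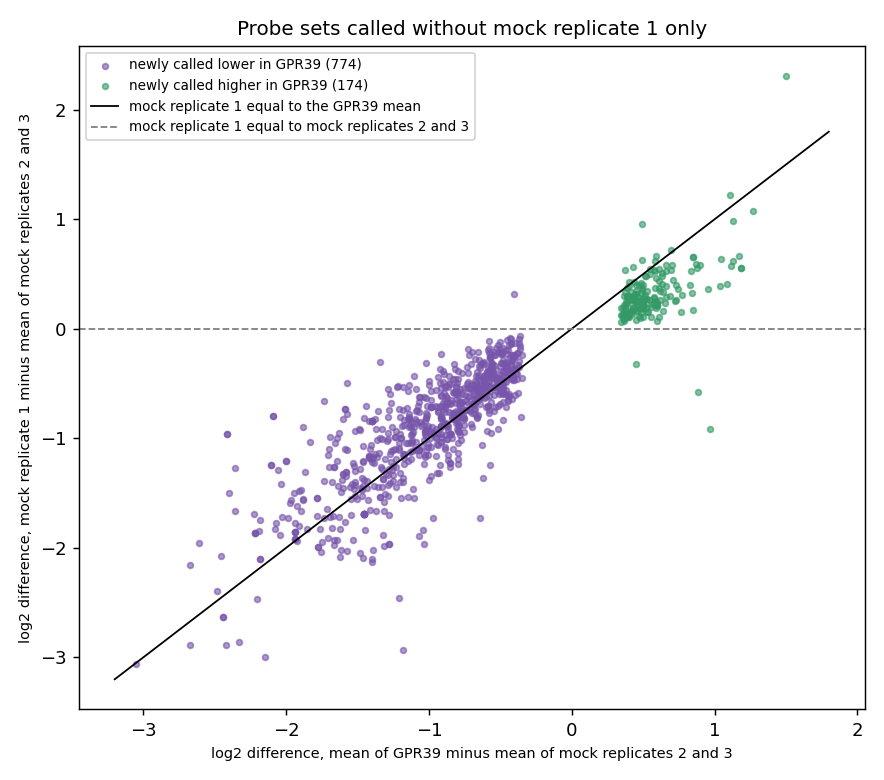
For each of the 948 probe sets called only without mock replicate 1, the log2 difference of mock replicate 1 from mock replicates 2 and 3 against the difference of the GPR39 mean from the same arrays. The 774 newly lower probe sets (purple) follow the solid line, where mock replicate 1 equals the GPR39 mean, and the 174 newly higher ones (green) mostly lie between that line and the dashed line at 0.

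The genes newly lower without mock replicate 1 included noncoding RNAs and large proteins. SLIT2-IT1, transcribed from within SLIT2, read 5.06, 6.42 and 6.703 in mock and 4.17, 4.42 and 3.89 in the GPR39 arrays. Mock replicates 2 and 3 stood above all other arrays, and replicate 1 between them and the GPR39 group. Its change was -2.401 without replicate 1 (limma adjusted p = 0.00133) and -1.902 with it (adjusted p = 0.0626). MIR1299 read 5.59, 7.48 and 7.84 in mock and 4.66, 5.27 and 5.69 in the GPR39 arrays, and MIR548F2 read 3.15, 4.76 and 4.49 in mock and 2.65, 2.78 and 2.73 in the GPR39 arrays. In both, mock replicate 1 read more than 1 log2 unit under the other mock arrays. The large cadherin gene FAT3 had a log2 difference of -1.36 without replicate 1 and -1.11 with it. MALAT1, an abundant nuclear noncoding RNA named here after its values were seen, read 10.03, 10.38 and 10.52 in mock and 9.81, 9.796 and 9.94 in the GPR39 arrays and differed by -0.60 without replicate 1 and -0.46 with it. The adjusted p of these genes ran from 0.000605 to 0.0196 without the array and from 0.0614 to 0.199 with it.

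By classes chosen after the values were seen, 3 of 15 tested intronic transcript genes, 19 of 467 microRNA genes (4.07%), 7 of 202 long intergenic genes and 4 of 313 antisense genes (1.28%) were lower without mock replicate 1, against 1.75% of all genes. Of 12 tested members of the duplicated GOLGA6, GOLGA8, NPIP and HERC2 families 8 were lower, but near-identical copies share probes and are not independent. Matrix genes were newly lower too. FN1, which encodes fibronectin, read 7.17, 7.52 and 7.62 in mock and 6.92, 7.03 and 7.01 in the GPR39 arrays, and changed by -0.58 (limma adjusted p = 0.019). FBN1, FBN2 and NID1, of microfibrils and basement membrane, changed by -0.86, -0.62 and -0.56, which brought the adhesion and matrix list to 4 rises and 5 falls. HOX genes went from 2 falls to 7 of 26, with HOXD10 at -0.83, HOXD9 at -0.69, HOXD11 at -0.58 and HOXB3 at -0.67. The LDL receptor family list went from 1 fall to 3, with LRP1 and LRP1B at -0.63 and -0.85. With mock replicate 1 in the fit none of these passed, and their adjusted p ran from 0.0544 to 0.299.

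Newly higher genes without mock replicate 1 added to the signalling lists. IL11, a cytokine of the LIF family, read 4.85, 4.39 and 4.14 in mock and 5.18, 5.29 and 5.02 in the GPR39 arrays. Mock replicate 1 was the mock array nearest to the GPR39 group, and IL11 had a log2 difference of 0.90 without it and 0.70 with it (limma adjusted p = 0.0158 and 0.12). The neuropeptide gene NTS read 3.95, 4.04 and 3.51 in mock and 4.63, 4.63 and 4.61 in the GPR39 arrays and changed by 0.85 without that array. ETV5 and CCND1, which encodes cyclin D1, changed by 0.73 and 0.40 and brought the ERK list to 8 of 18. Over all genes 1.71% were higher in that fit. The receptor gene IL6R changed by 0.64, the testis factor gene DMRT1 by 1.04, MIR4521 by 1.11 and TMEM217, the largest, by 1.11. STC1 and NRARP joined the calcium and Notch lists at 0.48 and 0.55. In the interferon list IFITM3 and IFIT5 were newly higher at 0.70 and 0.58, of 18 tested. MX2 was newly higher by at least 0.43, from mock replicates 2 and 3 under the floor, and IFIT1 was newly lower, by -0.27 or more in size, with all 3 GPR39 arrays under it. With mock replicate 1 in the fit the adjusted p of these genes ran from 0.0511 to 0.397.

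With 3 arrays a group, many calls rest on every array. Of the 391 probe sets 93 were called in each of the 6 fits that left out 1 mock or GPR39 array, 80 higher and 13 lower. These held 54 of the 196 genes, 43 that rose, ANKRD1, CCN2, CXCL8, GEM, MMP13 and CD44 among them, and 11 that fell, including AMOT, HOXA2, IGFBP5 and NRP1. Exactly equal values on at least 2 arrays occurred in 13.3% of called probe sets for the GPR39 group, as in ZNF449, and in 0.767% for mock. Over all tested probe sets these shares were 13.2% and 10.1%. Of the 391 calls 339 had none in the GPR39 group. What made the ties was not tested.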

How the data were processed

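RNA was extracted on columns with DNase digestion and labelled with biotin for Affymetrix arrays, per the labels' protocols. The deposited table holds a log2 signal for each probe set, a unit read off its range of 0.717 to 13.5, and the authors made it with MAS5, per the submitters' processing notes. For the log2 step and any normalization between arrays, no source used here gives the method. GEO's platform annotation gave 1 symbol to 16098 of 53617 probe sets, all found in RefSeq, several to 0 and none to 37519, which were tested and not named. A gene with several probe sets is given by the one with the smallest p. The design foresaw linear values with an added pseudocount, and none was added because the values are log2.

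All 9 arrays were fitted by group in limma 3.58.1 (R 4.3.3) with lmFit and eBayes, two-sided, with 6 residual and 2.12 prior degrees of freedom and Benjamini-Hochberg adjustment over 33376 probe sets at a threshold of 0.05. The fit was tested on simulated data. Errors after a change are standard errors and errors after a level are SDs of 3 arrays. Where the lower group of a called gene had arrays under the floor, the change is written as "at least", with the floor in place of dimmer values, a rule set after the data were seen. Arrays have no read depth, and precision is limited by their number.

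The comparison, the gene lists and the rule for named genes were chosen with earlier results of these data known. The rule takes the 20 largest rises and 20 largest falls whose arrays do not overlap and whose higher group has a mean above 4.60, the median of tested values. It adds up to 6 called members of each list, and for the fit without mock replicate 1 the 15 largest new rises and falls and up to 4 new members of each list. One transcript so chosen and some list results are not reported here. Same-numbered arrays of the groups did not deviate together, so the replicate number was not used as a block. Alternatives left out each array, changed the filter, the normalization, the arrays fitted and the estimate of the spread, and left out 1318 repeated rows.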

Additional observations from a re-analysis of the deposited data

How the results depend on the processing

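With 1 array left out the count of calls ran from 108 (without GPR39 replicate 3) to 1323 (without mock replicate 1), the higher calls from 87 to 416 and the lower calls from 21 to 907, again at those arrays. The counts for calls, higher and lower were 637, 397 and 240 with the filter at the 60th percentile, 969, 498 and 471 with array weights, and 663, 428 and 235 with a trended and robust spread. They were 190, 128 and 62 with only the 6 arrays fitted, and 679 and 491 for all and lower calls when those 6 lost mock replicate 1, an alternative chosen after seeing the data. With the replicate number as a block, replicate block counts were 150, 102 and 48, and correlations of deviations between mock and GPR39 arrays lay between -0.01 and 0.01. No filter, quantile normalization, centring on the 75th percentile and leaving out repeated rows kept all 3 counts within 1.5 times, at 301, 394, 415 and 366 calls. The GPR39 probe set stayed between 0.08 and 0.16 in its 8 alternatives, within the spread of replicates. No named gene turned its direction in any alternative. The pseudocount alternative was not run because the values are log2. The cause of these differences was not tested. Array data have no read depth, and genes near the 40th percentile have only bounds.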
